A study of Canis lupus familiaris with 4 samples.

Results

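The small noncoding RNA features of the count tables are described here. They were the rows named 7SK, or named as a U-numbered RNA, a small nucleolar RNA (SNORD, SNORA, sno), a small Cajal body RNA (SCARNA), a Y RNA, 5S rRNA, RNase P or RNase MRP RNA, vault RNA or canine microRNA. Of 11277 features in the tables, 50 matched this pattern. The pattern also caught 2 protein-coding genes, U2AF2 and U2SURP, whose proteins act with the U2 particle, and these were kept apart from the 48 small RNA features. The 48 comprised 7 spliceosomal RNAs, 13 box C/D and 17 box H/ACA small nucleolar RNAs, 4 small Cajal body RNAs, 6 other RNAs made by RNA polymerase III and 1 microRNA.

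Total RNA was sequenced in 4 libraries, each a pool of 3 dogs. Mammary ductal carcinoma (T1 and T2) and non-tumor mammary tissue beside it (the controls, C1 and C2) were taken at the radical mastectomy of 6 female dogs of different breeds that had not been neutered and were aged between 5 and 14 years. C1 and T1 came from the dogs of pool 1 and C2 and T2 from those of pool 2, so an n of 2 counts pools, and how single dogs vary cannot be seen. Depth was 32352002 counts in C1, 35496260 in T1, 4027367 in C2 and 3236218 in T2. The dogs of pool 1 were also older on average than those of pool 2. The pools therefore differ in dogs, their age and depth at once, and these cannot be told apart. Of the mammary epithelial markers, EPCAM, CDH1, KRT5, KRT19, ELF5, CSN2 and LALBA had counts in every library. They summed to between 1410 and 2542 CPM (counts scaled to a common library size, as defined further on). KRT8, KRT18 and KRT14 had no row in the count tables. In bulk tissue, fewer cells of a type and less RNA per cell cannot be told apart.

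Spliceosomal RNAs pair with the splice sites of the pre-mRNA inside small nuclear ribonucleoproteins, with U1, U2, U4, U5 and U6 serving most introns and U11 and U12 a rare class of introns. Box C/D RNAs guide ribose methylation and box H/ACA RNAs guide pseudouridylation of ribosomal RNA, while small Cajal body RNAs guide the same changes on spliceosomal RNAs. 7SK holds the elongation factor P-TEFb in an inactive state, RNase P trims the leader of transfer RNA precursors, RNase MRP cuts the ribosomal RNA precursor, and Y and vault RNAs are parts of the Ro and vault particles. Most vertebrate small nucleolar RNAs lie in introns of host genes, and several of the other families have many annotated copies and pseudogenes.

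The tables give 1 row per family name, and the length beside a small RNA name appears to add up its annotated copies. This length was 128292 bases for U6, 92312 for 7SK and 73 for snoZ40. How reads that match several copies were counted is uncertain, so the values of U1, U2, U4, U5, U6, 7SK, Y RNA and 5S rRNA stand for whole families. The same may hold for other rows of long table length. Among these were SNORD113 (4059 bases), U3 (2557), RNase P RNA (1682), SNORA31 (1646), U12 (1638), SNORD22 (1470) and SNORA18 (1421). For the same reason levels are compared between libraries and not between features. Reads from an unspliced host gene and from the small RNA inside its intron also cannot be told apart. Levels are CPM, the count scaled to the same total in every library, after the total was multiplied by a TMM normalization factor.

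**Figure D1:**
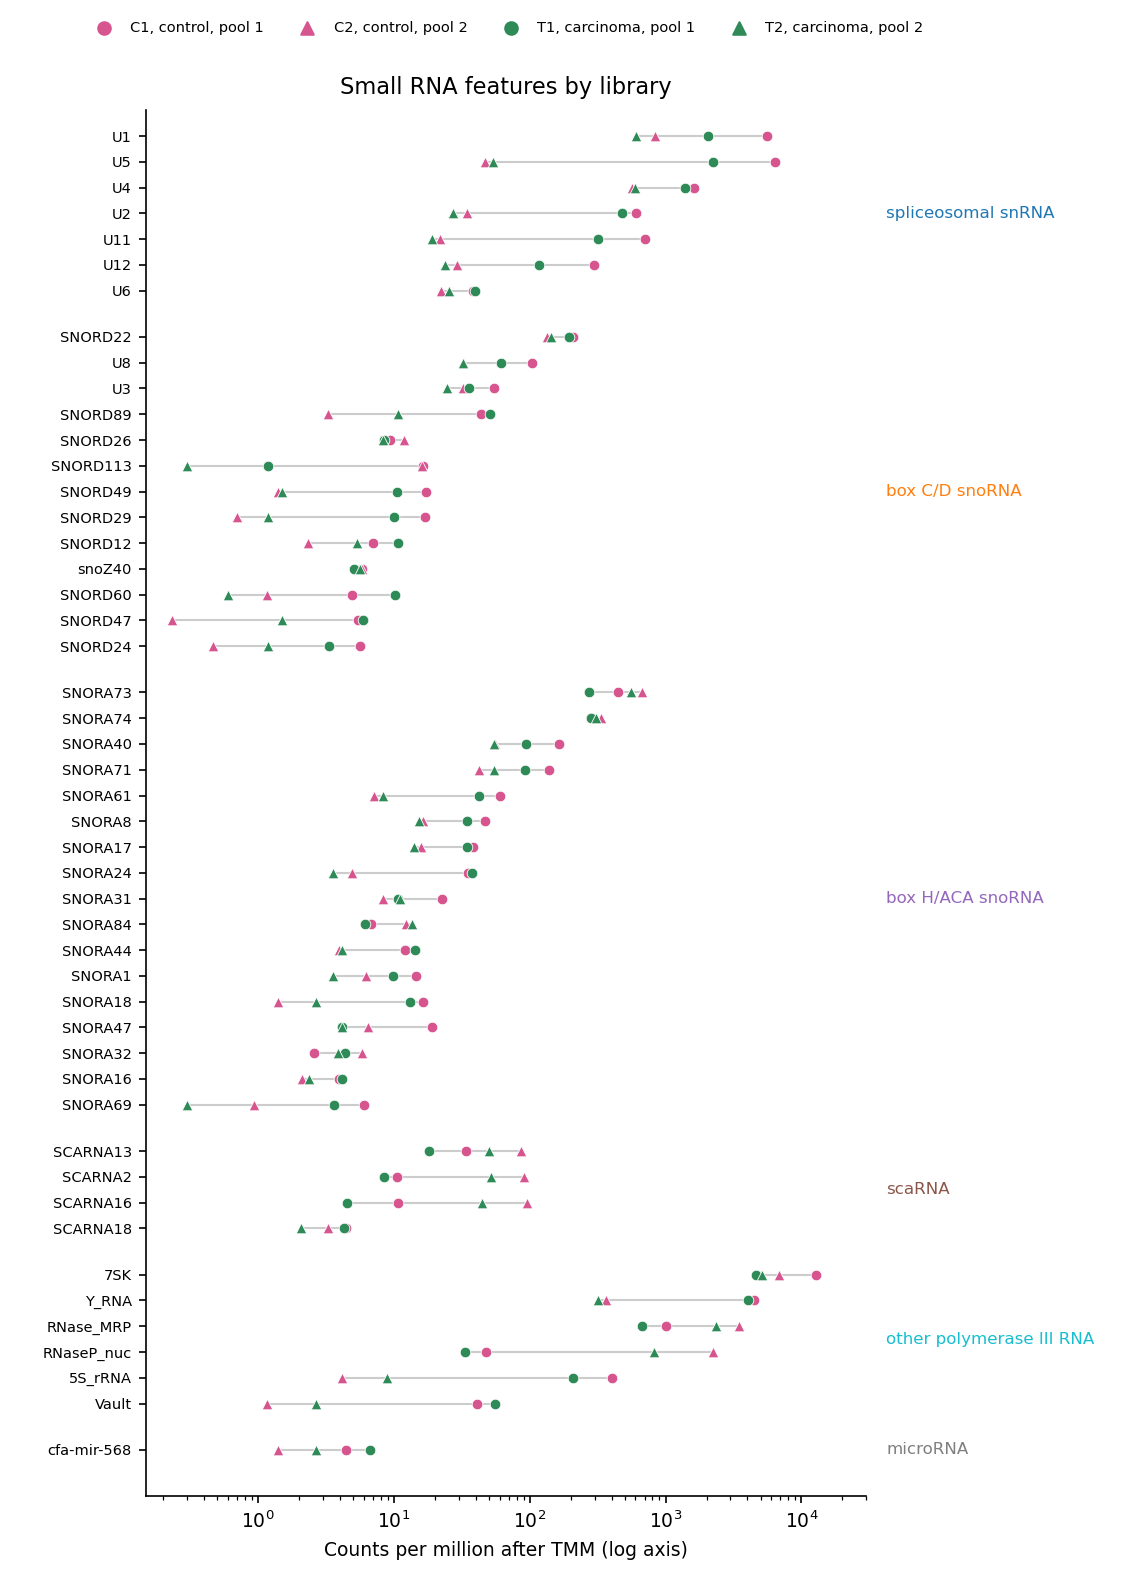
CPM after TMM (x axis, log scale) of the 48 small RNA features (y axis, by class), pink for control and green for carcinoma, with pool 1 drawn as circles and pool 2 as triangles. For most features the circles lie to the right of the triangles, as for U5 between 6340 CPM in C1 and 47.1 CPM in C2. RNase P RNA, RNase MRP RNA, SCARNA2, SCARNA13 and SCARNA16 lie the other way.

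As a share of all counts, the 48 features took 3.28% in C1, 1.74% in T1, 1.73% in C2 and 1.19% in T2. Spliceosomal RNAs took 1.39% in C1 and 0.653% in T1, but 0.166% in C2 and 0.140% in T2. Both pool 2 libraries lay below both pool 1 libraries, by 8.36-fold in control and 4.66-fold in carcinoma. The summed share of box H/ACA RNAs stayed within a narrow range, with 0.120% in C1, 0.0945% in T1, 0.128% in C2 and 0.110% in T2. This sum rests largely on SNORA73, at 0.0406% in C1, 0.0269% in T1, 0.0715% in C2 and 0.0578% in T2. SNORA74 added 0.0257%, 0.0277%, 0.0357% and 0.0322% in the same order. In the pool comparison further on, 11 of the 17 were called lower in pool 2, against 0.701% of all features. Small Cajal body RNAs took 0.00542% in C1 and 0.00348% in T1, against 0.0294% in C2 and 0.0155% in T2, and so were higher in pool 2. The other polymerase III RNAs took 1.72% in C1, 0.952% in T1, 1.38% in C2 and 0.901% in T2, so that both carcinomas lay below both controls. For such a share the exact permutation test (two-sided, 2 libraries against 2) cannot give a p below 0.333. That value was reached by the other polymerase III RNAs and the box H/ACA RNAs, while the remaining classes gave 0.667 in the same exact test.

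**Figure D2:**
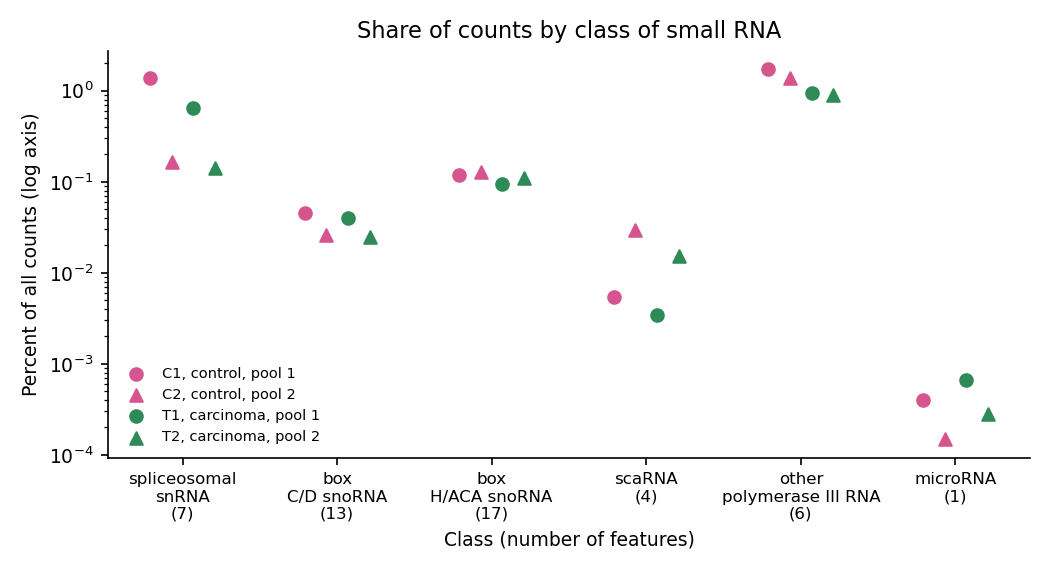
Percent of all counts (y axis, log scale) taken by each class of small RNA (x axis, with the number of features), 1 symbol per library, pink for control and green for carcinoma, with pool 1 drawn as circles and pool 2 as triangles. Spliceosomal RNAs go from 1.39% in C1 to 0.166% in C2, while small Cajal body RNAs go from 0.00542% to 0.0294%.

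Between carcinoma and control, SNORD113 was the small RNA feature that fell, and none rose. SNORD113 names a family of box C/D RNAs that lie as a tandem cluster in the imprinted domain between DLK1 and DIO3, and they have no known ribosomal target. Its level was 16.4 CPM in C1, 1.17 in T1, 16.0 in C2 and 0.297 in T2, from 483, 41, 69 and 1 counts. Both carcinoma libraries lay far below both controls, and the controls were alike. The log2 fold change was −4.06 (standard error, SE, 0.48, edgeR adjusted p = 0.00767). Within pool 1 the ratio of carcinoma to control was 0.0717 (95% interval 0.0508 to 0.0988), and within pool 2 it was 0.0186 (0.000464 to 0.107), where it rests on 1 count. A filter of at least 10 counts in every library removes it from the test. Summed markers of skeletal muscle (CKM, MYLPF, TTN and ACTA1) moved the same way, from 1769 CPM in C1 and 2901 in C2 to 21.4 in T1 and 27.1 in T2. Those of fibroblasts (COL1A1, DCN and LUM) went from 2821 and 2802 CPM to 754 and 853. The summed endothelial and immune lists were also lower in both carcinomas. The epithelial markers did not move together, since the milk protein genes CSN2 and LALBA and the factor ELF5 were lower in both carcinomas, KRT5 went from 164 and 259 CPM to 353 and 572, and CDH1 from 670 and 514 CPM to 647 and 567. The part of these lists in the fall of SNORD113 was not tested. The intervals here and further on cover counting error only.

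The comparison used edgeR's quasi-likelihood test over all features, and a feature was called where the Benjamini-Hochberg adjusted p was under 0.05 and the fold change at least 2 either way. By this rule 1 of 48 small RNA features was lower, against 5.24% of all features, and 0 of 48 were higher, against 4.62% of all features. At an unadjusted p under 0.05 in edgeR 0 of 48 were higher, against 14.6% of all features, and 3 lower, against 13.9%. By DESeq2 0 of 48 were called higher, against 5.08% of all features, and 2 lower (SNORD113 and 7SK), against 5.61%. Both carcinoma libraries lay below both controls for 5 of the 48 features (28% of all features) and above them for 0 of the 48 (29.6% of all features). The median log2 fold change of the 48 was −0.36, against 0.03 for all features, with 36 values below 0 and 12 above.

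This test counts the offset between pools as error, and for small RNAs that offset was large. With the pool as a replicate block, 7 of 48 features were lower in carcinoma, against 6.83% of all features, and 0 of 48 were higher, against 7.09%. At an unadjusted p under 0.05 and any fold, 27 of the 48 were lower, against 31.8% of all features, and 6 higher, against 35.1%, in that fit. Besides SNORD113, the features lower with the block were U5, U11, U12, SNORA47, SCARNA16 and RNase P RNA. The fit with the block leaves 1 residual degree of freedom, and its adjusted p-values depend on the dispersion shared across features.

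7SK was 12891 CPM in C1, 4636 in T1, 6846 in C2 and 5165 in T2. Both carcinomas lay below both controls, and the controls differed from each other more than the carcinomas did. The log2 fold change was −1.01 (SE 0.31), and it did not pass in edgeR (adjusted p = 0.107), while by DESeq2 7SK was called lower (log2 fold change −1.03, adjusted p = 0.00129). With 1 library left out the edgeR log2 fold change ran from −1.40 without C2 (adjusted p = 0.00972) to −0.53 without C1 (adjusted p = 0.247). Without C2 the control is C1 alone, which is then assumed to vary like the carcinomas. Within pool 1 the ratio of carcinoma to control was 0.360 (95% interval 0.358 to 0.362) and within pool 2 it was 0.754 (0.740 to 0.769). Both ratios were below 1, by unequal amounts.

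The spliceosomal RNAs had log2 fold changes from −1.47 (U5) to 0.10 (U6), and adjusted p-values of 0.458 or more in edgeR. U1, which pairs with the 5′ splice site, was 5621 CPM in C1 and 2060 in T1, and 835 in C2 and 607 in T2. Its ratio of carcinoma to control was 0.366 (95% interval 0.363 to 0.370) in pool 1 and 0.728 (0.689 to 0.769) in pool 2, so both ratios were below 1. U5, which holds the exons together during splicing, was 6340 CPM in C1 and 2245 in T1, but 47.1 in C2 and 53.5 in T2. Its ratio was 0.354 (0.351 to 0.357) in pool 1 and 1.14 (0.926 to 1.40) in pool 2, so the pairs did not go the same way. With the block the log2 fold change of U5 was −1.04 (SE 0.12, adjusted p = 1.17e-15), although the pair of pool 2 did not go down.

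U11 and U12, the RNAs of the minor spliceosome, were lower in pool 2 than in pool 1. U11 was 704 CPM in C1 and 318 in T1, and 21.8 in C2 and 19.0 in T2. U12 was 299 CPM in C1 and 117 in T1, and 29.2 in C2 and 23.8 in T2. With the block their log2 fold changes were −1.07 (SE 0.07, adjusted p = 4.31e-35) and −1.23 (SE 0.08, adjusted p = 1.05e-34). Within pool 2 the ratios were 0.874 (95% interval 0.626 to 1.21) for U11 and 0.815 (0.608 to 1.09) for U12, and neither could be told from 1 at this depth. U2, which pairs with the branch site, was 605 CPM in C1 and 474 in T1, and 34.8 in C2 and 27.1 in T2. Its ratios of 0.782 (0.766 to 0.799) and 0.778 (0.593 to 1.02) were nearly equal, and the latter could not be told from 1. U4, at 1625 CPM in C1, 1380 in T1, 564 in C2 and 592 in T2, and U6, at 38.2, 39.5, 22.3 and 25.3 CPM in the same order, showed pairs close to 1. U4 had ratios of 0.849 and 1.05 and U6 of 1.03 and 1.14.

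Among the RNAs of nucleolar and transfer RNA processing, RNase P RNA and RNase MRP RNA were lower in carcinoma within both pools. RNase P RNA was 47.2 CPM in C1 and 33.3 in T1, and 2235 in C2 and 819 in T2. Its ratio was 0.704 (95% interval 0.651 to 0.761) in pool 1 and 0.366 (0.351 to 0.382) in pool 2, and with the block its log2 fold change was −1.06 (SE 0.07, adjusted p = 1.88e-37). RNase MRP RNA was 1004 CPM in C1 and 674 in T1, and 3463 in C2 and 2358 in T2. Its ratios of 0.671 (0.659 to 0.682) and 0.681 (0.663 to 0.700) were nearly the same in both pools, and lay under the 2-fold asked of a call. Without the block neither passed, with adjusted p-values of 0.676 and 0.683.

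Y RNA was 4488 CPM in C1 and 4062 in T1, and 367 in C2 and 319 in T2. Its ratios of 0.905 (95% interval 0.898 to 0.912) and 0.870 (0.805 to 0.941) lay just under 1. 5S rRNA, the small RNA of the large ribosomal subunit, was 406 CPM in C1 and 208 in T1, but 4.17 in C2 and 8.92 in T2. The latter pair rests on 18 and 30 counts, and its ratio of 2.14 (1.15 to 4.07) lay opposite to the 0.512 (0.497 to 0.527) of pool 1. Vault RNA was 40.6 CPM in C1 and 55.8 in T1, and 1.16 in C2 and 2.68 in T2, with ratios of 1.37 (1.28 to 1.48) and 2.31 (0.695 to 8.77). Vault RNA was thus among the 8 features with both ratios above 1 (45.2% of all features had this), while 24 of the 48 had both below 1 (39.3% of all features).

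The small Cajal body RNAs went the same way within both pools. SCARNA16 was 10.7 CPM in C1 and 4.49 in T1, and 95.5 in C2 and 44.3 in T2. Its ratios were 0.421 (95% interval 0.346 to 0.512) and 0.464 (0.382 to 0.561), and with the block its log2 fold change was −1.18 (SE 0.12, adjusted p = 4.32e-18). SCARNA13 was 33.7 CPM in C1 and 18.1 in T1, and 85.8 in C2 and 50.3 in T2. It had ratios of 0.536 (0.484 to 0.593) and 0.586 (0.486 to 0.705). SCARNA2 had ratios of 0.799 (0.679 to 0.940) and 0.579 (0.481 to 0.693). SCARNA18, with 14 counts in C2 and 7 in T2, had ratios of 0.981 and 0.641 whose intervals included 1.

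Of the box H/ACA RNAs, SNORA47 differed most between the tissues. It was 18.9 CPM in C1 and 6.49 in C2, and 4.12 in T1 and 4.16 in T2, so both carcinomas lay below both controls. Its log2 fold change was −1.67 (SE 0.56, adjusted p = 0.128) without the block and −2.04 (SE 0.17, adjusted p = 6.50e-24) with it. Within pool 2 its ratio of 0.641 (95% interval 0.312 to 1.26) included 1. SNORA73, which takes part in cleavage of the ribosomal RNA precursor, was 445 CPM in C1, 273 in T1, 668 in C2 and 556 in T2. SNORA74 was 281 CPM in C1, 281 in T1, 333 in C2 and 310 in T2 and so nearly even, with ratios of 0.999 and 0.929.

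Box C/D RNAs other than SNORD113 had log2 fold changes from −0.60 (SNORD29) to 0.85 (SNORD60). SNORD22 was 209 CPM in C1, 194 in T1, 135 in C2 and 143 in T2, with ratios of 0.927 and 1.06. U3, which guides early cleavage of the ribosomal RNA precursor, had ratios of 0.653 (95% interval 0.606 to 0.704) and 0.761 (0.573 to 1.00). U8, needed to process the RNA of the large subunit, had ratios of 0.601 (0.568 to 0.635) and 1.00 (0.773 to 1.30). In T2, 12 of the 48 features had fewer than 10 counts, and in C2 10, against 0 in C1 and T1. SNORD24, SNORD29, SNORD47, SNORD49 and SNORD60 had at most 6 counts in each pool 2 library, so their ratios there were not resolved at this depth.

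The ratios of 8 of the 48 features went opposite ways in the pools and lay at least 1 apart on the log2 scale, against 0.685% of all features. These were U5, 5S rRNA, SNORD24, SNORD29, SNORD60, SNORA18, SNORA31 and SNORA32, and 4 of them had fewer than 10 counts in both pool 2 libraries. SNORA31 was 22.8 CPM in C1 and 10.7 in T1, but 8.35 in C2 and 11 in T2. SNORA32 was 2.57 CPM in C1 and 4.38 in T1, but 5.80 in C2 and 3.87 in T2. Their ratios in pool 2 of 1.32 (95% interval 0.811 to 2.15) and 0.667 (0.313 to 1.35) could not be told from 1. SNORA18 was 16.5 CPM in C1 and 13.2 in T1, with 1.39 in C2 and 2.68 in T2. SNORD29 was 17 and 9.96 CPM in pool 1 and 0.695 and 1.19 in pool 2, in each case control before carcinoma. SNORD24 was 5.59 and 3.32 CPM, then 0.464 and 1.19, and SNORD60 4.94 and 10.1 CPM, then 1.16 and 0.595. These box C/D RNAs were thus low in pool 2 in both tissues.

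**Figure D3:**
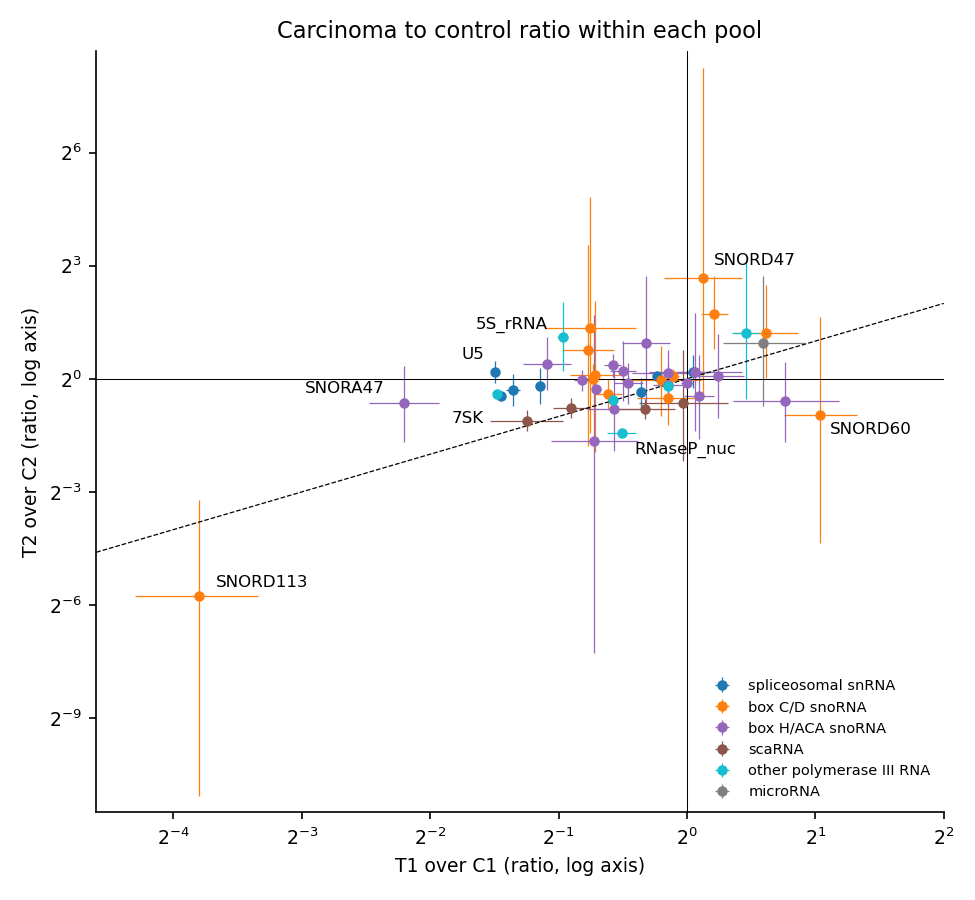
Carcinoma over control CPM within pool 1 (x axis) and within pool 2 (y axis) for the 48 small RNA features, on log axes with unequal ranges. Bars are 95% intervals for counting error, the dashed line marks equal ratios, and SNORD113 stands alone at 0.0717 and 0.0186.

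Larger differences lay between the pools, and most went the same way in both tissues. The median absolute log2 difference of the 48 features was 1.43 between pools and 0.50 between tissues, against 0.23 and 0.34 for all features. A fit with tissue and pool as terms compared pool 2 with pool 1, with the same thresholds. In it 35 of 48 small RNA features were called, against 5.96% of all features. Of the 48, 29 were lower in pool 2, against 0.701% of all features, and 6 were higher, against 5.26%. At an unadjusted p under 0.05 and any fold 36 were lower, against 23.4%, and 8 higher, against 26.5%. The 29 stood among 79 features called lower in pool 2 in the whole table. By DESeq2 27 small RNA features were lower, against 0.479% of all features, and 5 higher, against 4.76%. Both pool 2 libraries lay below both pool 1 libraries for 33 of the 48 (17.4% of all features) and above them for 8 (19.5%). The median log2 difference of pool 2 over pool 1 was −1.30 for the 48 features and −0.02 for all features. The pool number names a set of dogs, and depth differs with it, so the source of this offset cannot be told apart. In this fit the tissues of the same dogs serve as replicates, so its p-values say nothing about the spread between sets of dogs. The tables look filtered, since features without counts numbered 0 in C1, 1 in T1, 4 in C2 and 26 in T2. Of the 48, 10 had fewer than 10 counts in C2 and 12 in T2, against 0 in C1 and T1. Some may be listed through pool 1 alone, which can favor calls lower in pool 2. With at least 10 counts in every library, 20 of 36 small RNA features were lower and 6 higher. Of all 10804 features then tested, 605 were called either way. These 605 were not split by direction, so no share of all features stands beside the 20 or the 6.

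**Figure D4:**
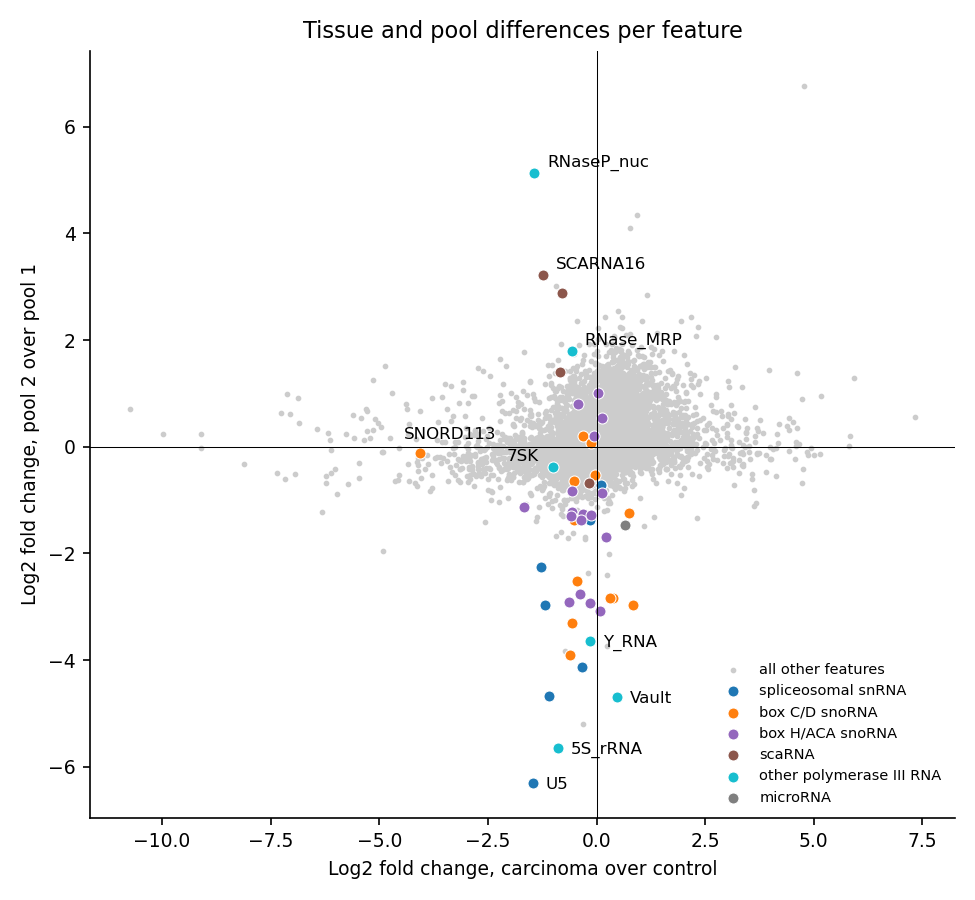
Log2 fold change of carcinoma over control (x axis) against that of pool 2 over pool 1 (y axis) for each feature, with the 48 small RNA features colored by class and all other features in grey. The small RNA features spread along the pool axis, from −6.31 for U5 to 5.12 for RNase P RNA, while SNORD113 lies at −4.06 on the tissue axis.

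Features lower in pool 2 came from 5 of the 6 classes. They were 6 of 7 spliceosomal RNAs, 8 of 13 box C/D RNAs, 11 of 17 box H/ACA RNAs, 3 of 6 other polymerase III RNAs and the microRNA. U5 had the lowest value, with C2 135-fold below C1 and T2 41.9-fold below T1, a log2 difference of −6.31 (SE 0.13, adjusted p = 2.81e-114). 5S rRNA was 97.3-fold lower in C2 and 23.3-fold lower in T2 (log2 difference −5.64, SE 0.13, adjusted p = 3.09e-106). Vault RNA was 35.0-fold lower in C2 and 20.8-fold lower in T2, and U11 32.3-fold and 16.7-fold. U2 was 17.4-fold and 17.5-fold lower and Y RNA 12.2-fold and 12.7-fold, so for these both tissues gave nearly the same value. SNORD29, the remaining feature lower by at least 8-fold in both tissues, was 24.4-fold and 8.37-fold lower, from 3 and 4 counts. Over the whole table, 7 of 11247 features with counts in all libraries were lower in pool 2 by at least 8-fold in both tissues, which is 0.0622% of them, and these 7 were all small RNA features (14.6% of the 48). At least 8-fold higher in pool 2 in both tissues were 5 features (0.0445%), among them RNase P RNA and SCARNA16. Outside this count, since it had 0 counts in T2, the unnamed feature ENSCAFG00000022716 of 70 bases was 5.59 CPM in C1 and 4.24 in T1, and 0.232 in C2. The 8-fold limit was chosen after the values were seen, and no test was made of it.

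RNase P RNA, SCARNA16, SCARNA2, RNase MRP RNA, SCARNA13 and SNORA84 were higher in pool 2. RNase P RNA was 47.3-fold higher in C2 than in C1 and 24.6-fold higher in T2 than in T1 (log2 difference 5.12, SE 0.07, adjusted p = 5.13e-149). SCARNA16 was 8.95-fold higher in control and 9.86-fold in carcinoma, and SCARNA2 8.49-fold and 6.14-fold. RNase MRP RNA was 3.45-fold and 3.50-fold higher, and SCARNA13 2.55-fold and 2.78-fold. SNORA84, a box H/ACA RNA, was 1.82-fold and 2.24-fold higher. Pools thus differed in opposite directions for RNase P RNA and for 5S rRNA, both products of polymerase III.

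Some features differed little between libraries. snoZ40 was 5.82 CPM in C1, 5.06 in T1, 5.80 in C2 and 5.65 in T2. SNORD26 was 9.28, 8.38, 11.8 and 8.33 CPM in the same order. SNORA74 had a log2 difference between pools of 0.19 (SE 0.06, adjusted p = 0.003). Also not called between pools were 7SK, U3, U6, SNORD22, SNORD113, SNORA16, SNORA31, SNORA32, SNORA73 and SCARNA18, for 13 features in all. Not all of these differed little, since SNORD113 differed between tissues. Some were under 2-fold with a low edgeR adjusted p between pools, as SNORA73 (log2 difference 0.80, adjusted p = 1.72e-32) and U6 (−0.72, adjusted p = 1.97e-07).

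Of 27 small RNA features with a table length of at most 450 bases, 17 were lower in pool 2, against 0.701% of all features. Of the same 27, 5 were higher, against 5.26% of all features. Of the other 65 features of that length, 7 were lower and 8 higher, with a median log2 difference of 0.05 against −1.37 for the small RNAs. Of the 13 small RNA features with at most 150 bases, 10 were lower and SNORA84 alone was higher, against the same shares of all features. Table length and the pool difference had a Spearman rho of 0.388 and a Pearson r of 0.447 over these 27 features, −0.033 and −0.205 over the 13 shortest, and 0.069 and 0.015 over all 48. These values describe the features only, since they share libraries and some lengths add several copies.

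**Figure D5:**
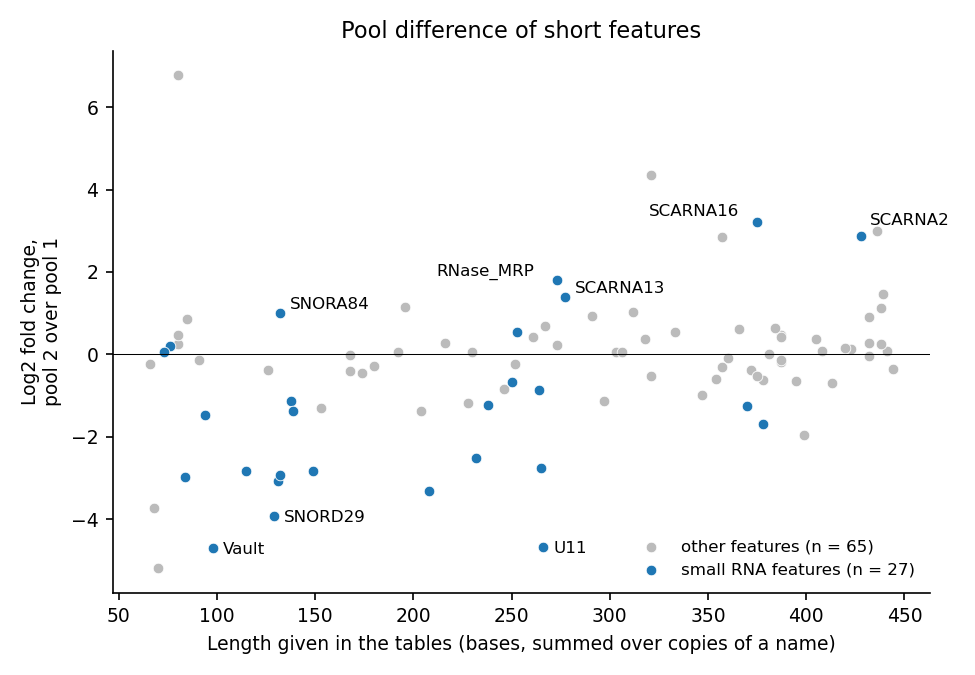
Log2 fold change of pool 2 over pool 1 (y axis) against the length in the tables (x axis, bases) for the 92 features with at most 450 bases, small RNA features in blue and others in grey. Vault RNA and SNORD29 lie at −4.69 and −3.91, and SCARNA16 and SCARNA2 at 3.21 and 2.88.

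Host genes of small nucleolar RNAs had smaller pool differences than the RNAs of their introns, a contrast that was not tested. SNORD89 had a log2 difference between pools of −2.84, while its host RNF149 had −0.11 (adjusted p = 0.408). SNORD24 had −2.53, from 2 counts in C2 and 4 in T2, while its host RPL7A, a ribosomal protein gene, had 0.49 (adjusted p = 2.24e-15). SNORA47 had −1.13, while HOMER1 had −0.06 (adjusted p = 0.499). SNORA31 had −0.82 and TPT1 −0.51 (adjusted p = 1.86e-15), the closest of these pairs. For SNORA47 and SNORA31 the pool difference lay in the controls. Their ratios of C2 over C1 were 0.343 and 0.367, and those of T2 over T1 were 1.01 and 1.03. The SNORA31 row, of 1646 bases, may add up copies outside TPT1, so that pair may not compare a host with its own RNA. Between the tissues, HOMER1 had a log2 fold change of 0.46 (adjusted p = 0.0543) where SNORA47 had −1.67. These pairs were drawn from the known positions of the human RNAs after the values were seen, and 5 of 10 partners considered were in the tables.

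The microRNA gene cfa-mir-568 was 4.44 CPM in C1, 6.70 in T1, 1.39 in C2 and 2.68 in T2, from as few as 6 counts. In the RefSeq annotation of the assembly UU_Cfam_GSD_1.0 it lies between TIGIT and ZBTB20, the gene of a zinc finger repressor. Its log2 fold change of 0.65 (SE 0.63) did not pass (adjusted p = 0.553). ZBTB20 was 212 CPM in C1, 318 in T1, 190 in C2 and 296 in T2, a log2 fold change of 0.61 (SE 0.12, adjusted p = 0.0323), which is under the 2-fold asked of a call.

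Among genes of the proteins that bind, make or trim these RNAs, and genes that host them, BRF2 fell and none rose. Of 181 measured genes in 12 lists, 1 was lower in carcinoma, against 5.24% of all features, and 0 were higher, against 4.62%, with a median log2 fold change of −0.03. At an unadjusted p under 0.05 edgeR had 12 higher, against 14.6% of all features, and 7 lower, against 13.9%. DESeq2 called 0 higher, against 5.08%, and 1 lower, against 5.61%. The gene that fell was BRF2, which encodes the initiation factor subunit that polymerase III uses at U6, 7SK and similar promoters. BRF2 was 20.4 CPM in C1, 2.98 in T1, 18.5 in C2 and 3.87 in T2, a log2 fold change of −2.57 (SE 0.29, adjusted p = 0.00663), with both carcinomas far below both controls. The part of the muscle and fibroblast difference in this value was not tested either. BRF1, its counterpart at 5S rRNA and transfer RNA genes, had a log2 fold change of 0.35 (adjusted p = 0.793).

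None of the 10 measured genes of box C/D particle proteins was called in either direction, and neither was any of 7 for box H/ACA particles, 38 for spliceosomal particles or 7 for RNase P and RNase MRP. Their log2 fold changes lay between −0.73 and 0.80. Of each list without a call the 2 genes with the highest mean CPM are given. RPAP3, an assembly factor gene of box C/D particles, was 88.0 CPM in C1, 56.9 in T1, 61.0 in C2 and 41.9 in T2 (log2 fold change −0.58, adjusted p = 0.197). NOP56, a core box C/D protein gene, was 65.8, 61.7, 51.0 and 50.6 CPM in the same order (−0.06, adjusted p = 0.869). The box H/ACA assembly factor genes went opposite ways, with SHQ1 at 67.7, 87.2, 62.1 and 91.9 CPM (0.46, adjusted p = 0.0652) and NAF1 at 56.6, 44.9, 52.6 and 39.6 CPM (−0.37, adjusted p = 0.180). SF3B1, of the U2 particle, was 593, 484, 554 and 447 CPM, and PRPF8, of the U5 particle, was 333, 386, 321 and 351 CPM. The RNase P protein genes RPP30 and POP1 had log2 fold changes of −0.15 and 0.04. Of 10 genes of the 7SK particle and P-TEFb, none was called. The elongation factor genes ELL2 and AFF4 of that list had log2 fold changes of −0.52 (adjusted p = 0.0440, under the 2-fold asked of a call) and −0.08 (adjusted p = 0.778). Of 28 measured host genes of small nucleolar RNAs, none was called, with a median log2 fold change of −0.27, and EEF2 and TPT1 had 0.11 and −0.33. At an unadjusted p under 0.05 these lists had, in the order given, 2, 1, 1, 0, 1 and 1 genes higher and 0, 0, 1, 0, 2 and 2 lower, and DESeq2 called none of them. The other lists without a call were 5 genes of the signal recognition particle, 7 of proteins that bind Y, vault and 5S RNA, 25 of spliceosomal RNA 3′ processing, export and assembly, 16 of the nuclear exosome and 7 of microRNA processing. In that order they had 1, 0, 2, 0 and 2 genes higher and 0, 1, 0, 0 and 0 lower at an unadjusted p under 0.05, and 0 called by DESeq2. The log2 fold changes of their most abundant genes were 0.02 for SRP72 and 0.51 for SRPR (adjusted p = 0.0405), −0.48 for RPL5 and 0.06 for PARP4, and −0.08 for NCBP1 and −0.05 for INTS8. They were 0.03 for ZCCHC7 and −0.33 for SKIV2L2, and 0.37 for TNRC6A and 0.13 for TNRC6B.

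Between the pools, 8 of the 181 genes were higher in pool 2, against the 5.26% of all features, and 0 were lower in edgeR, against 0.701%, or in DESeq2, against 0.479%. At an unadjusted p under 0.05 edgeR had 50 of the 181 lower, against 23.4% of all features. Those higher included BRF1 (log2 difference 1.58, adjusted p = 1.64e-15), the vault protein gene TEP1 (1.60, adjusted p = 8.23e-26) and TARBP2, a partner of Dicer (1.51, adjusted p = 2.91e-09). The genes of the lists thus spanned −0.73 to 1.60 between pools, and the small RNA features −6.31 to 5.12.

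The protein-coding genes caught by the naming pattern were kept apart from these counts. U2AF2, which encodes the factor that binds the polypyrimidine tract, was 21.6 CPM in C1, 31.6 in T1, 32.2 in C2 and 66.0 in T2. Its log2 fold change was 0.85 (adjusted p = 0.257). U2SURP was 206 CPM in C1, 145 in T1, 185 in C2 and 130 in T2, with ratios of carcinoma to control of 0.705 and 0.699 (log2 fold change −0.51, adjusted p = 0.0601).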

How the data were processed

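The sequencing reads were counted by the authors, who deposited 1 table of raw counts per library with a feature name, a length and the count. For small RNA names the length appears to add up the annotated copies. For protein-coding genes it was long, at 42015 bases for SF3B1 and 221932 for TNRC6B, and may take in introns. TruSeq Stranded Total RNA libraries were sequenced. Tools named in the processing notes of the submitters are STAR, featureCounts, FastQC and DESeq2, while the study's methods name TopHat2 and HTSeq with default settings, which count 1 strand and leave out reads with several matches. Which of these made the deposited counts, the featureCounts settings and the genome build were not given in the sources used here. Totals ranged from 3236218 to 35496260 counts per library, and 3 counts, taken as the floor, equal 0.0858 CPM in T1 and 0.892 CPM in T2.

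Counts were tested in R 4.3.3 with edgeR 4.0.16 (filterByExpr, TMM, quasi-likelihood F-test, Benjamini-Hochberg adjustment over 11277 features). Calls needed an adjusted p under 0.05 and a fold change of 2 or more either way. The standard error was the absolute log2 fold change over the square root of F. DESeq2 1.42.0 was an alternative, as were its size factors, other filters, TMM without the small RNA and the 10 most abundant features, each library left out, and the pool number as a replicate block. Same-numbered pools hold the same dogs, so the numbers pair the samples. Deviations of such libraries from their group means had a correlation of 0.782 over all features and 0.934 over small RNA features. Ratios within a pool carry 95% exact binomial (Clopper-Pearson) intervals. With 2 pools per group, p-values without the block measure the spread between pools. With the block, and between pools, 1 residual degree of freedom remains, and p-values rest on how alike the tissue difference is in both pools, not on the spread between sets of dogs.

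The members and lists were chosen with earlier results of these data known. Values per library were given for features that were called, for the 10 with the highest mean CPM, for the most abundant of each class and for those whose pairs went opposite ways by at least 1 on the log2 scale, and others were added where a comparison turned on them. Of an uncalled list, the 2 genes with the highest mean CPM were named, and those named between pools were chosen after their values were seen. Of small RNA symbols, 1 of 48 was in the RefSeq gene table (UU_Cfam_GSD_1.0), and no sequence is printed. The scripts were tested on simulated data.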

Additional observations from a re-analysis of the deposited data

Results flagged for a closer look

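The ratio of carcinoma to control went opposite ways in the pools, by at least 1 on the log2 scale, for 8 of 48 small RNA features, against 0.685% of the 11247 features with counts in all libraries. Each pool gives 1 ratio, so the difference was not tested. As the log2 ratio of pool 2 minus that of pool 1, it was 1.68 for U5, 2.06 for 5S rRNA, 2.11 for SNORD24, 1.55 for SNORD29, 1.49 for SNORA31, 1.26 for SNORA18, −1.997 for SNORD60 and −1.35 for SNORA32. SNORD24, SNORD29 and SNORD60 had at most 5 counts in each pool 2 library and SNORA18 had 6 and 9. U5 had 203 and 180 counts there, SNORA31 36 and 37, SNORA32 25 and 13, and 5S rRNA 18 and 30. Of the 8, only 5S rRNA had intervals that excluded 1 in both pools, at 0.497 to 0.527 in pool 1 and 1.15 to 4.07 in pool 2.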

How the results depend on the processing

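The fall of SNORD113 was called in edgeR under every alternative that kept it, with log2 fold changes from −5.76 to −3.78 and adjusted p-values from 0.000851 to 0.0146 with 1 library left out. A filter of at least 10 counts in every library removed it and left 0 small RNA features lower. All features lower in carcinoma numbered 425 with that filter, 633 by DESeq2 and 770 with the replicate block, against 591 in the main test. Fits with 1 library left out keep 1 library in a group, so their calls of small RNA features were not weighed against all features. Small RNA features lower in carcinoma numbered 2 by DESeq2, 7 when the pool was a replicate block and 1 to 4 with 1 library left out. Without C2 they were 7SK, SNORA47 and SNORD113, and without T2 SCARNA13, SCARNA16, SNORA73 and SNORD113. All features higher in carcinoma numbered 800 with the replicate block and 342 to 509 with 1 library left out (342 without C1), against 521. List genes lower in carcinoma numbered 1 to 3 with 1 library left out (3 without C2). The replicate block also added calls of U5 (log2 fold change −1.04) and RNase P RNA (−1.06), as given above.

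With 1 library left out the log2 fold change between tissues changed sign for 17 named features, none of them called in these fits. The ranges were −2.97 to 2.53 for Y RNA, −2.45 to 0.63 for U1, −5.94 to 4.56 for U5, −1.73 to 0.59 for RNase MRP RNA, −0.93 to 0.76 for U4, −5.10 to 3.16 for RNase P RNA, −0.23 to 0.069 for SNORA74, −3.62 to 2.82 for U2 and −0.31 to 0.28 for SNORD22. They were −0.34 to 1.84 for cfa-mir-568, −3.05 to 3.15 for SNORD29, −2.58 to 2.39 for SNORD60, −1.65 to 2.44 for SNORD24, −1.07 to 0.32 for SNORA31, −1.89 to 2.59 for SNORA18, −0.52 to 0.70 for SNORA32 and −4.58 to 4.70 for 5S rRNA. Leaving out a library unpairs the pools.

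Mean shares of counts in control and carcinoma without the most abundant feature of the class were 0.0190% and 0.0153% for box C/D, 0.0677% and 0.0601% for box H/ACA and 0.598% and 0.430% for other polymerase III RNAs. With the 10 most abundant features taken out of the class sums as well as the total, they were 0.151% and 0.122% for box H/ACA. For other polymerase III RNAs they were then 0.727% and 0.514%. Pool comparisons could not be repeated with a library left out, since no residual degree of freedom remains. Pool 2 held fewer than 10 counts for 10 features in C2 and 12 in T2, which limits their ratios.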

Other observations

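Other short features, chosen after their values were seen, also differed between the pools. Telomerase-vert, the row of the telomerase RNA, was 13.5 CPM in C1 and 4.81 in T1, and 89.9 in C2 and 52.3 in T2, a log2 difference between pools of 3.01 (standard error 0.12, edgeR adjusted p = 1.69e-63). Telomerase RNA is a box H/ACA RNA that also carries the signal for Cajal bodies, and its row went the same way between pools as SCARNA2, SCARNA13 and SCARNA16. SCARNA18 went the other way (log2 difference −0.68, edgeR adjusted p = 0.0917). Of the 17 box H/ACA features, 11 were called lower in pool 2, against 0.701% of all features, and 1 higher, against 5.26%. For Telomerase-vert the carcinoma library was below the control within each pool, while its log2 fold change between tissues was −0.94 (edgeR adjusted p = 0.689).

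The feature ENSCAFG00000032696, of 80 bases and without a gene name in the tables, was 3.66 CPM in C1, 38.9 in C2 and 4.61 in T1, but 1037 in T2. The high value thus came from 1 library. Its log2 difference between pools was 6.77 (adjusted p = 1.93e-102 in edgeR). ATP8, a short gene of the mitochondrial genome, was 547 CPM in C1, 338 in T1, 182 in C2 and 157 in T2, a log2 difference of −1.37 (adjusted p = 6.05e-54 in edgeR).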
